A study of Mus musculus with 8 samples.

Results

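The p38 mitogen-activated protein kinase (MAPK) cascade was described at the RNA level through 10 genes, taken by symbol from the 20207 genes of the expression files. They were the 4 p38 kinase genes Mapk14 (p38α), Mapk11 (p38β), Mapk12 (p38γ) and Mapk13 (p38δ), the upstream kinase genes Map2k3, Map2k6 and Map3k5, and the genes of the MAPK-activated protein kinases (MKs) Mapkapk2, Mapkapk3 and Mapkapk5. All 10 had a value in each file and passed the minimum on low values. RNA was sequenced in 8 libraries of sorted mouse bone marrow cells. Normal mice gave 2 libraries of long-term haematopoietic stem cells (LT-HSCs), 1 of short-term HSCs (ST-HSCs) and 1 of KLS- progenitor cells. Mice with a disease like chronic myelogenous leukaemia (CML) gave 2 libraries of LT-CML stem cells, 1 of ST-CML stem cells and 1 of CML-KLS- cells.

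LT cells were sorted as CD150+CD48-CD135-KLS+ cells and ST cells as CD150-CD48-CD135-KLS+ cells, where KLS+ means cKit+Lineage-Sca-1+ and KLS- means cKit+Lineage-Sca-1-. Per the methods, CML-affected mice were Tal1-tTA+ TRE-BCR-ABL1+ double transgenics in which withdrawal of doxycycline (DOX) switched on BCR-ABL1, and their normal littermates carried Tal1-tTA alone, with the same withdrawal. The Tal1 element drives the transactivator in stem and progenitor cells, so BCR-ABL1 is induced in those cells and not in every tissue. The labels give the strain C57BL/6 for all 8 libraries, whereas the methods describe FVB/N parents for this cross, and C57BL/6 control mice of 2 ages were also used in the study, for metabolite profiling. The labels give an age of 2 months for LT-HSC replicate 1, the ST-HSC library and the normal KLS- library, 6 months for LT-HSC replicate 2, and none for the CML libraries, and the methods give a younger age than 6 months for the sorted littermates. The paper states that the normal cells for RNA sequencing came from healthy littermates. The strain label and the 6-month age differ from the methods for those littermates, and the sources used here do not settle which holds. Mice of both sexes were used, and whether cells of several mice were pooled was not given. The replicates of 1 population were therefore libraries whose origin in separate mice was not given, and p-values measure the spread between libraries. Where LT and ST libraries were pooled in 1 group, this spread includes the difference between LT and ST cells.

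The values were read counts scaled to transcript length and library depth (RPKM), so levels of different genes can be set side by side per length. The estimated depth was 17.8 to 23.9 M reads per library. Slamf1, the gene of CD150, was between 10.7 and 35.5 RPKM in the 4 LT libraries and between 0.955 and 2.87 RPKM in the 4 other libraries, and Ly6a, a gene of Sca-1, was at 72.4 RPKM or above in LT and ST libraries and at 8.16 and 11.7 RPKM in the KLS- libraries. Flt3, the gene of CD135, was at 61.6 and 71.6 RPKM in the ST libraries, although those cells were sorted as CD135-. A list of neutrophil and granulocyte genes (9 of 10 found in the files) summed to 13072 and 21234 RPKM in the KLS- libraries and to between 255 and 4165 RPKM in the stem libraries, with LT-HSC replicate 2 (4165) and LT-CML replicate 2 (3831) above the other LT libraries (601 and 321). These sums rested on different genes, with S100a8 at 1802, Ngp at 688 and Mpo at 69.9 RPKM in LT-HSC replicate 2, and S100a8 at 588.5, Ngp at 117 and Mpo at 1291 RPKM in LT-CML replicate 2. The Y-linked gene Ddx3y was at 31.0 RPKM in LT-HSC replicate 2 and 17.5 in LT-CML replicate 2, against at most 0.0625 in the other 6. Xist, transcribed from the inactive X chromosome, was at 0.154 RPKM in LT-HSC replicate 2, 13.5 in LT-CML replicate 2 and between 12.4 and 30.8 in the other 6, so that LT-CML replicate 2 held transcripts of both.

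The cascade works as a relay of kinases. Stress, cytokines and other inputs activate MAP3 kinases such as ASK1, the product of Map3k5, these phosphorylate the MAP2 kinases MKK3 (Map2k3) and MKK6 (Map2k6), and the MAP2 kinases phosphorylate a threonine and a tyrosine in the activation loop of a p38 kinase. Active p38 then phosphorylates transcription factors and further kinases, among them MK2 (Mapkapk2) and MK3 (Mapkapk3), which act on RNA-binding proteins and so on the stability of inflammatory transcripts, and MK5 (Mapkapk5). In haematopoietic stem cells the pathway is best known as a stress response that limits their self-renewal. The study asked whether phosphorylated p38 acts on Smad3 in LT-CML stem cells and followed it by protein assays. It also used p38 inhibitors in colony assays and in mice followed for survival, and transplanted cells carrying Smad3 mutants. The RNA values address how much transcript each member had, and not how much of the kinase was phosphorylated.

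The stretch read by antibodies against phosphorylated p38 is encoded by 1 exon in each of the 4 p38 kinase genes, and it is shown here because it is what these 4 members have in common. Capitals mark the codons of the Thr-Gly-Tyr motif in the coding sequences of GENCODE M1 on mm9 (NCBI Build 37), written 5′ to 3′ along the coding strand. The motif, searched in frame as ACN GGN TA followed by C or T, occurred 1 time in each coding sequence.
Mapk14: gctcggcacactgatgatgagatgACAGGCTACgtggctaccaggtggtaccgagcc
Mapk11: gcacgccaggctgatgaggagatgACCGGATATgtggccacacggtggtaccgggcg
Mapk12: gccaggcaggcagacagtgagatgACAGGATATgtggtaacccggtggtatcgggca
Mapk13: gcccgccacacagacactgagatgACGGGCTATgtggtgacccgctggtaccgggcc
The Mapk14 stretch lies at chr17:28865320-28865376 on the plus strand, the Mapk11 stretch at chr15:88976272-88976328 on the minus strand, the Mapk12 stretch at chr15:88965082-88965138 on the minus strand and the Mapk13 stretch at chr17:28913265-28913321 on the plus strand. Each falls in exon 7 of 12. The motif took codons 180 to 182 in Mapk14, Mapk11 and Mapk13 and codons 183 to 185 in Mapk12. Of the 57 bases, between 41 (Mapk14 and Mapk12) and 46 (Mapk12 and Mapk13) were identical in the 6 pairs of genes. The 4 genes form 2 neighbouring pairs: Mapk14 and Mapk13 lie on the same strand of chromosome 17 with 20902 bases between them, and Mapk12 and Mapk11 on the same strand of chromosome 15 with 1782 bases between them. The rule by which reads with several matches were counted was not given in the sources used here.

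Mapk14 supplied most of the p38 transcript in every population. Its share of the summed RPKM of the 4 p38 genes had a median of 93.0% over the 8 libraries, from 86.7% in the CML-KLS- library to 95.5% in the ST-HSC library. Mapk14 was at 23.8 and 27.4 RPKM in the LT-HSC libraries, 22.3 in the ST-HSC library, 23.1 and 22.2 in the LT-CML libraries, 26.0 in the ST-CML library, 18.2 in the normal KLS- library and 15.5 in the CML-KLS- library. The 6 stem libraries all lay above both KLS- libraries, and CML and normal stem libraries overlapped.

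The other 3 p38 genes were low, with 0 to 81 estimated reads per library. Mapk13 was at 0.650 and 1.24 RPKM in the LT-HSC libraries, 0.115 in the ST-HSC library, 1.148 and 1.108 in the LT-CML libraries, 2.01 in the ST-CML library, 0.854 in the normal KLS- library and 2.39 in the CML-KLS- library. It was lowest in the ST-HSC library, where the value rests on an estimated 3 reads, and highest in the CML-KLS- and ST-CML libraries with 59 and 52 reads. The ratio of Mapk14 to Mapk13 therefore ran from 6.51 in the CML-KLS- library to 194 in the ST-HSC library.

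Mapk12 was at 0.372 and 1.80 RPKM in the LT-HSC libraries, 0.507 in the ST-HSC library, 0.307 and 0.320 in the LT-CML libraries and 0.824 in the ST-CML library, with 0.0523 in the normal KLS- library. It was listed at 0 in the CML-KLS- library, where 3 reads would have been 0.0891 RPKM. LT-HSC replicate 2 stood apart with an estimated 81 reads against 11 to 29 in the other stem libraries. This is the 6-month library, which also had the highest sum of neutrophil and granulocyte genes among stem libraries. LT-CML replicate 2 had a similar sum, led by different genes of the list, with Mapk12 at 0.320 RPKM. B and T cell genes summed to 5.90 RPKM in LT-HSC replicate 2 and 10.7 in the ST-CML library, against at most 4.06 in the other 6. These 2 sums came mostly from the B cell gene Cd79a (3.34 and 6.43 RPKM). The T cell gene Cd4 was at 0.203 RPKM in LT-HSC replicate 2, below the other stem libraries (0.988 to 2.635). The red cell gene Hbb-b1 was at 56.3 RPKM in LT-HSC replicate 2 against at most 6.25. The part of any of these in the value was not tested.

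Mapk11 was at 0.144 and 0.223 RPKM in the LT-HSC libraries, 0.436 in the ST-HSC library, 0.139 and 0.360 in the LT-CML libraries, 0.439 in the ST-CML library, and 0.121 in normal KLS- cells. It was listed at 0 in the CML-KLS- library, where 3 reads would have been 0.0690 RPKM. Both ST libraries (20 estimated reads each) lay above the 4 LT libraries (7 to 16 reads). The gene therefore had the lowest median of the 10 members, 0.183 RPKM, against 22.7 for Mapk14.

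**Figure D1:**
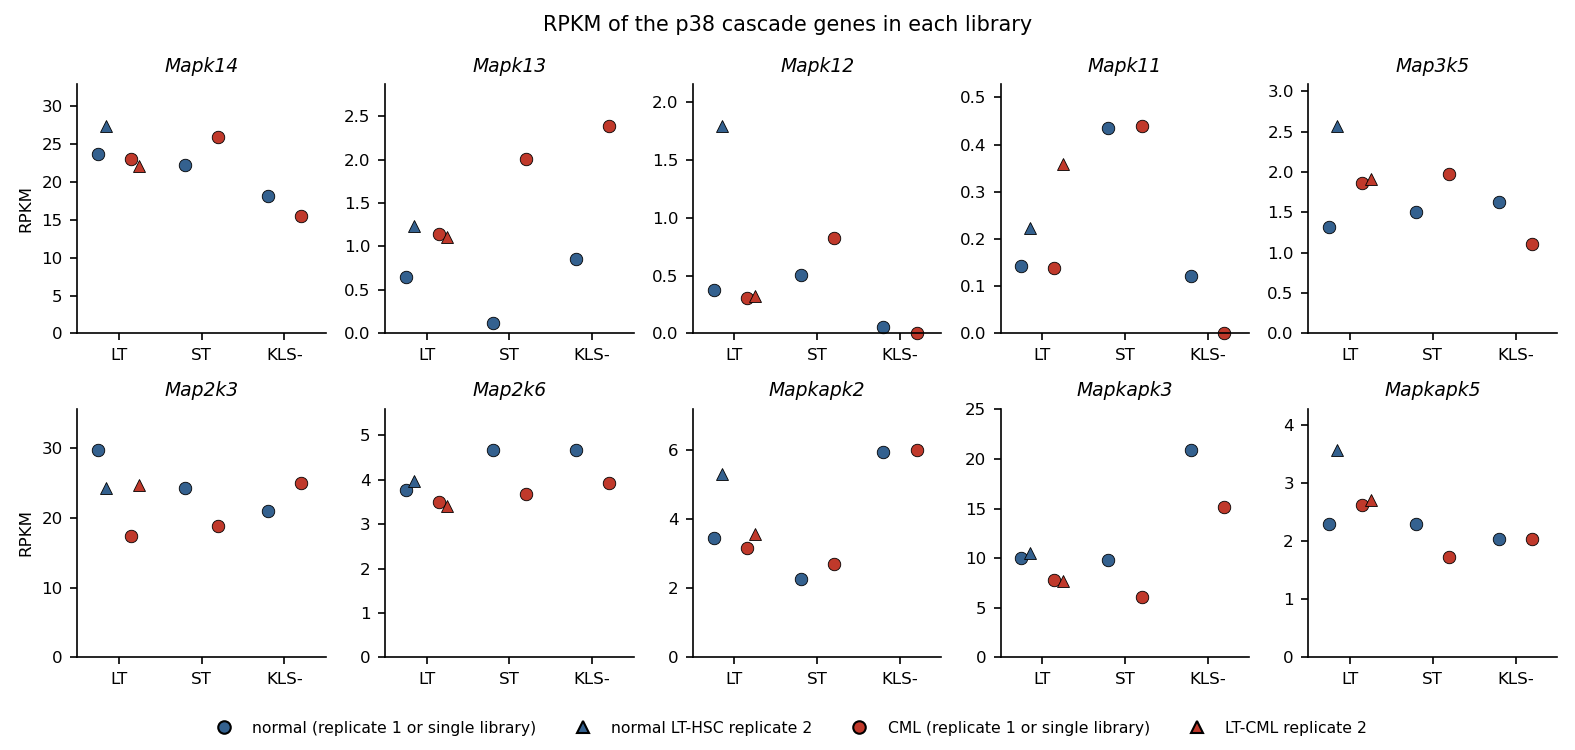
Each panel plots 1 gene of the p38 cascade in the 8 libraries, with RPKM on a linear axis from 0 and the populations LT, ST and KLS- along the bottom; blue marks normal mice, red marks CML-affected mice and triangles mark the second LT replicate of each. Mapk14 lies between 22.2 and 27.4 RPKM in LT and ST libraries and at 15.5 and 18.2 in KLS- libraries, Mapkapk3 lies highest in the KLS- libraries, and Mapk12 stands apart in LT-HSC replicate 2.

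Among the upstream kinases, Map2k3 was expressed at the level of Mapk14 and Map2k6 well below it. Map2k3, which encodes MKK3, was at 29.7 and 24.2 RPKM in the LT-HSC libraries, 24.2 in the ST-HSC library, 17.4 and 24.7 in the LT-CML libraries, 18.8 in the ST-CML library, 20.9 in the normal KLS- library and 25.01 in the CML-KLS- library. Map2k6, which encodes MKK6, was at 3.77 and 3.98 RPKM in the LT-HSC libraries, 4.67 in the ST-HSC library, 3.49 and 3.41 in the LT-CML libraries, 3.67 in the ST-CML library, 4.66 in the normal KLS- library and 3.92 in the CML-KLS- library. The ratio of Map2k3 to Map2k6 was between 4.48 (normal KLS-) and 7.88 (LT-HSC replicate 1). LT-CML replicate 2 (24.7 RPKM) lay above 2 of the 3 normal stem libraries for Map2k3, so that the groups overlapped, whereas for Map2k6 all 3 CML stem libraries lay below the 3 normal ones.

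Map3k5, which encodes the stress-responsive MAP3 kinase ASK1, was at 1.32 and 2.57 RPKM in the LT-HSC libraries, 1.5 in the ST-HSC library, 1.86 and 1.92 in the LT-CML libraries, 1.97 in the ST-CML library, 1.63 in the normal KLS- library and 1.11 in the CML-KLS- library. The LT-HSC replicates were its lowest and its highest stem value, so that the CML stem libraries lay inside the normal range.

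Of the MK genes, Mapkapk3 had the highest level in all 8 libraries. Mapkapk3 was at 10.02 and 10.48 RPKM in the LT-HSC libraries, 9.81 in the ST-HSC library, 7.82 and 7.74 in the LT-CML libraries, 6.04 in the ST-CML library, 20.9 in the normal KLS- library and 15.2 in the CML-KLS- library. Both KLS- libraries lay above all 6 stem libraries, and within LT, ST and KLS- cells each CML library lay below each normal one.

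Mapkapk2 was at 3.46 and 5.32 RPKM in the LT-HSC libraries, 2.26 in the ST-HSC library, 3.18 and 3.57 in the LT-CML libraries, 2.696 in the ST-CML library, 5.96 in the normal KLS- library and 6.01 in the CML-KLS- library. It too was highest in both KLS- libraries, and it was lowest in both ST libraries. Mapkapk5 was at 2.29 and 3.57 RPKM in the LT-HSC libraries, 2.29 in the ST-HSC library, 2.63 and 2.71 in the LT-CML libraries, 1.73 in the ST-CML library, 2.04 in the normal KLS- library and 2.03 in the CML-KLS- library. The KLS- libraries lay inside its range in stem libraries. Mapkapk3 exceeded Mapkapk2 by a ratio of 1.97 to 4.34 and Mapkapk5 by 2.86 to 10.3, with the largest value of the latter in normal KLS- cells.

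The first comparison asked which members differed between the 6 stem libraries (LT and ST, both disease states) and the 2 KLS- libraries. Mapk14 was higher in stem cells and the MK genes Mapkapk3 and Mapkapk2 were higher in KLS- cells. The test was limma on log2(RPKM + 1) with disease as a covariate and Benjamini-Hochberg adjustment over 12561 genes, and differences are given on that log2 scale, which understates the change of low genes. By it, 3 of the 10 members passed an adjusted p of 0.05, beside 41.6% of all genes tested, so that the count is near the background of this contrast. The 5 members whose groups did not overlap stood beside 49.6% of all genes. The median difference of the members was 0.10, against 0.08 over all genes. In bulk libraries fewer cells of a type and less RNA per cell cannot be told apart.

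Mapkapk3 was at 8.65 ± 1.73 RPKM in stem libraries (SD, n = 6) and 18.1 ± 4.04 in KLS- libraries (SD, n = 2), a difference of -0.98 (SE 0.13, 95% interval -1.29 to -0.68, adjusted p = 0.0010 from limma). It passed in 15 of 15 alternatives, with an adjusted p from 0.000789 to 0.0251. Mapk14 was at 24.1 ± 2.13 RPKM in stem libraries and 16.9 ± 1.86 in KLS- libraries (SD, n = 6 and 2), a difference of 0.49 (SE 0.13, 95% interval 0.19 to 0.79, adjusted p = 0.0170 from limma). The call for Mapk14 was lost when the normal KLS- library or the CML-KLS- library was left out (adjusted p = 0.0814 and 0.198).

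Mapkapk2 was at 3.41 ± 1.05 RPKM in stem libraries and 5.99 ± 0.0361 in KLS- libraries (SD, n = 6 and 2), a difference of -0.69 (SE 0.23, 95% interval -1.22 to -0.17, adjusted p = 0.0394 from limma). It passed in 7 of 15 alternatives, and was lost among others without either KLS- library (adjusted p = 0.162 and 0.250), without LT-HSC replicate 1 (0.0634) and without a minimum on low values (0.106). The sums of neutrophil and granulocyte genes, monocyte genes (80.9 and 138 RPKM against 10.8 to 39.5) and erythroid genes (826 and 1815 RPKM against 7.02 to 96.7) were higher in KLS- than in stem libraries alongside Mapkapk3 and Mapkapk2, and the part of these cells in the differences was not tested. Within the neutrophil and granulocyte list 4 of 9 genes had a positive and 5 a negative difference (median -0.17), and the high sums of KLS- cells came mostly from Mpo (7891 and 13120 RPKM) and Ela2 (3582 and 5672 RPKM), whereas Ltf was at 1.12 and 1.68 RPKM there. Of 5 erythroid genes tested 4 had a negative and 1 a positive difference. The erythroid sums of KLS- cells came mostly from Car1 (804.5 and 1775 RPKM), whereas Hbb-b1 was at 2.21 and 1.61 RPKM there and between 0 and 56.3 RPKM in stem libraries. Hba-a1 was the 1 listed marker at 0 in all libraries.

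Mapk12 and Mapk11 were also above the KLS- libraries in every stem library. Their differences were 0.66 (SE 0.26, adjusted p = 0.0705 from limma) and 0.28 (SE 0.13, adjusted p = 0.114 from limma). For Mapk11 LT-CML replicate 1 and LT-HSC replicate 1 had an estimated 7 reads each, against 6 in the normal KLS- library. The counting intervals overlapped (0.0557 to 0.285 RPKM in LT-CML replicate 1, 0.0445 to 0.264 in normal KLS- cells). Mapk12 passed with a pseudocount of 0.1 in place of 1 (2.43, adjusted p = 0.00784) and without LT-HSC replicate 2 (0.50, adjusted p = 0.0313), so that its call depends on how low values are treated and on 1 library. For the remaining 5 members the 95% intervals were -0.93 to 0.22 for Mapk13, -0.43 to 0.42 for Map2k3, -0.43 to 0.16 for Map2k6, -0.15 to 0.68 for Map3k5 and -0.22 to 0.62 for Mapkapk5. The sign for Map2k3, Map3k5 and Mapkapk5 changed under quantile normalization.

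**Figure D2:**
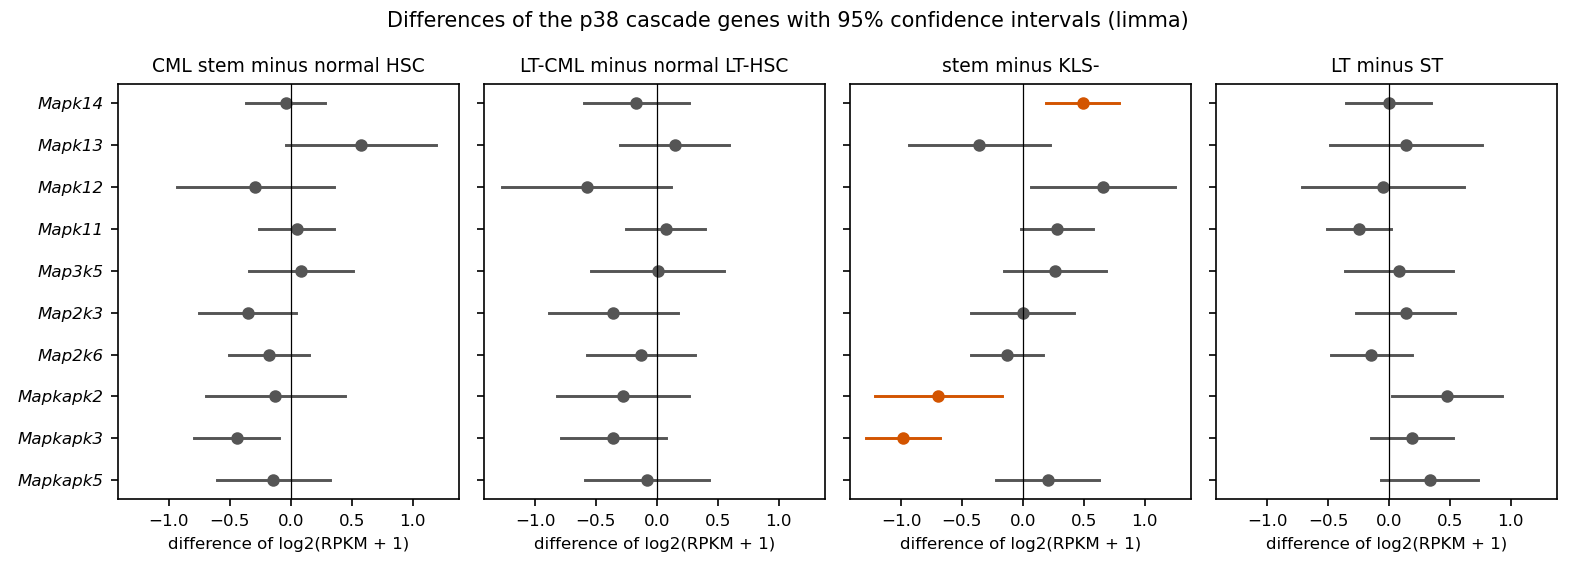
Points give the difference of log2(RPKM + 1) and lines its 95% confidence interval from limma for the 10 genes in 4 comparisons, with orange for an adjusted p under 0.05 and grey for the others. Orange points appear only in the comparison of stem with KLS- libraries, for Mapk14 at 0.49, Mapkapk2 at -0.69 and Mapkapk3 at -0.98.

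The second comparison asked whether members differed between CML stem cells (2 LT-CML and 1 ST-CML library) and normal HSCs (2 LT-HSC and 1 ST-HSC library). None of the 10 passed the adjusted threshold of limma, beside 2.34% of all genes tested, and 1 (Mapkapk3) had an unadjusted p under 0.05. Groups did not overlap for Map2k6 and Mapkapk3, both lower in CML, beside 18.3% of all genes. The median difference of the members was -0.13, against -0.04 over all genes. Mapk14 was at 23.7 ± 1.98 RPKM in CML stem cells and 24.5 ± 2.63 in normal HSCs (SD, n = 3 each). Its difference of -0.04 (SE 0.14, adjusted p = 0.938 from limma) had a 95% interval of -0.37 to 0.28, which spans 0.775 to 1.22 times the normal level of RPKM + 1, and its sign changed under quantile normalization.

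Mapkapk3 was at 7.20 ± 1.007 RPKM in CML stem cells and 10.1 ± 0.344 in normal HSCs (SD, n = 3 each), or 0.713 times the normal mean. The difference of -0.44 (SE 0.15, 95% interval -0.79 to -0.10) did not pass (adjusted p = 0.253 from limma, and 0.139 to 0.552 over the alternatives). All 3 CML libraries lay below all 3 normal ones. Mapk13 was at 1.42 ± 0.510 RPKM in CML stem cells and 0.667 ± 0.561 in normal HSCs (SD, n = 3 each), a difference of 0.58 (SE 0.26, 95% interval -0.04 to 1.19, adjusted p = 0.435 from limma) in which LT-HSC replicate 2 (1.24 RPKM) overlapped with the LT-CML libraries.

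Map2k3 differed by -0.35 (SE 0.17, adjusted p = 0.465 from limma), Map2k6 by -0.18 (SE 0.14, adjusted p = 0.684) and Mapk12 by -0.29 (SE 0.28, adjusted p = 0.748). Without LT-HSC replicate 2 the sign for Mapk12 was the opposite (0.03). The intervals for Mapk11 (-0.26 to 0.36), Map3k5 (-0.34 to 0.51), Mapkapk2 (-0.70 to 0.45) and Mapkapk5 (-0.61 to 0.32) included 0 as well.

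Within LT cells, 2 LT-CML libraries were compared with 2 LT-HSC libraries in a fit of all 8. None of the 10 members passed by limma, with 0 at an unadjusted p under 0.05, beside 1.73% of all genes past the adjusted threshold. Groups of 2 did not overlap for Mapk14, Mapk12, Map2k6 and Mapkapk3, all 4 lower in LT-CML, beside 40.5% of all genes. The median difference was -0.15 for the members and -0.01 over all genes. Mapkapk3 was at 7.78 ± 0.0559 RPKM in LT-CML and 10.3 ± 0.325 in LT-HSC libraries (SD, n = 2 each), a difference of -0.36 (SE 0.18, 95% interval -0.79 to 0.07, adjusted p = 0.535 from limma). For Mapk14 the difference was -0.17 (SE 0.18, 95% interval -0.60 to 0.26, adjusted p = 0.826). These comparisons share normal and CML libraries with the second comparison, so that they are not separate evidence.

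In ST and KLS- cells each disease state had 1 library, so that the values carry counting error only and no test of the condition. For Mapk13 an estimated 52 reads of ST-CML cells stood against 3 of ST-HSCs, a ratio of 17.5 per read of depth with a 95% counting interval of 5.66 to 87.5. In KLS- cells it was 59 against 24 reads, a ratio of 2.80 (1.71 to 4.70). Reads of amplified cDNA are not independent molecules, so that these intervals and the limits for 0 reads cover sampling of reads only. Mapk11 had 20 reads in both ST libraries, a ratio of 1.008 (0.515 to 1.98). In KLS- cells it had 6 reads in the normal library (counting interval 0.0445 to 0.264 RPKM) and 0 in the CML library (up to 0.0848 RPKM), and these intervals overlapped. Mapk12 had 29 against 18 reads in ST cells (ratio 1.62, 0.872 to 3.11) and was at or under the floor in both KLS- libraries. Mapk14 in ST-CML was 1.16 times the ST-HSC value and in CML-KLS- 0.855 times the normal KLS- value, and the corresponding values of Mapkapk3 were 0.616 and 0.726 times. The neutrophil and granulocyte sum was higher in ST-CML (2168 RPKM) than in ST-HSC cells (255 RPKM) and higher in CML-KLS- than in normal KLS- cells, alongside Mapk13, and its part was not tested.

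Whether the disease difference itself varied between stem and KLS- cells was tested as an interaction. None of the 10 members passed by limma (0 at an unadjusted p under 0.05, adjusted p = 0.9996 each), beside 0.0717% of all genes. The widest 95% intervals were those of Mapk12 (-1.46 to 1.02) and Mapk13 (-1.48 to 0.89), and the KLS- side had 1 library of each state.

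LT cells (4 libraries) were then compared with ST cells (2 libraries), with disease as a covariate. None of the members passed by limma, with 1 (Mapkapk2) at an unadjusted p under 0.05, beside 4.08% of all genes. Groups did not overlap for Mapk11, lower in LT cells, and for Mapkapk2 and Mapkapk5, higher in LT cells, beside 24.2% of all genes. Mapkapk2 was at 3.88 ± 0.971 RPKM in LT and 2.48 ± 0.309 in ST libraries (SD, n = 4 and 2), a difference of 0.47 (SE 0.20, 95% interval 0.02 to 0.92, adjusted p = 0.253 from limma). Mapk14 differed by 0.00 (95% interval -0.35 to 0.35).

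The rest of the pathway was read from lists of upstream kinases and adaptors, phosphatases and targets. Between stem and KLS- libraries the phosphatases had a list median of 0.74, against 0.26 for the other upstream kinases and adaptors, 0.19 for the targets, 0.07 for the ERK and JNK kinases and 0.08 over all genes. Of 11 phosphatases tested 5 rose and 1 fell in stem cells. Of 27 other upstream genes 8 rose and 2 fell, and of 22 targets 7 rose and 1 fell. Of 9 tested kinases of the ERK and JNK branches 1 rose, Map2k7, which encodes a JNK kinase kinase (0.51, adjusted p = 0.0257 from limma, lost under quantile normalization and without the normal KLS- library). These shares of 6 in 11, 10 in 27, 8 in 22 and 1 in 9 stand beside 41.6% of all genes.

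**Figure D3:**
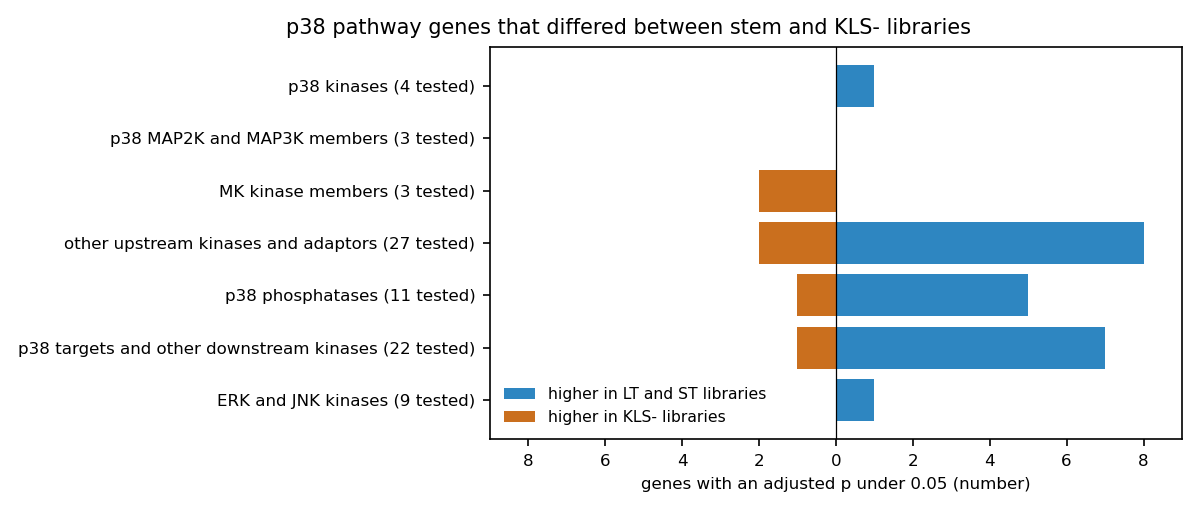
Bars count the genes of each list with an adjusted p under 0.05 (limma) between stem and KLS- libraries, to the right where stem libraries were higher and to the left where KLS- libraries were higher, with the number tested beside each list name. The phosphatase list has 5 genes to the right and 1 to the left of 11 tested, the p38 kinases 1 to the right of 4, and the MK genes 2 to the left of 3.

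The phosphatases that rose in stem cells were dual-specificity phosphatases, which remove phosphate from both the threonine and the tyrosine of MAP kinases. Dusp16, which acts on JNK and p38, was between 1.10 and 2.71 RPKM in stem libraries and at 0.429 and 0.143 in KLS- libraries, a difference of 1.14 (SE 0.13, adjusted p = 0.000534 from limma). Dusp10 (MKP5), which acts on p38 and JNK, was between 2.01 and 4.60 RPKM in stem libraries and at 0.510 and 0.828 in KLS- libraries (1.31, SE 0.22, adjusted p = 0.00243). Stem and KLS- libraries did not overlap for either gene.

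Dusp2 was between 16.0 and 28.1 RPKM in stem libraries and at 8.39 and 2.91 in KLS- libraries (1.88, SE 0.28, adjusted p = 0.00153 from limma). Dusp5, better known for ERK, was between 2.17 and 6.31 RPKM in stem libraries and at 0.598 and 0.389 in KLS- libraries (1.68, SE 0.31, adjusted p = 0.00354). Dusp16 and Dusp2 passed in 15 of 15 alternatives, whereas Dusp10 was lost without the normal KLS- library and Dusp5 without the CML-KLS- library. Dusp4, chosen for mention after its values were seen, was between 0.641 and 1.86 RPKM in stem libraries and was listed at 0 in both KLS- libraries. The phosphatase that fell in stem cells was Ptprr (-0.48, SE 0.16, adjusted p = 0.0355 from limma), a gene at 0.851 RPKM or below whose groups overlapped and which passed in 5 of 14 alternatives.

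Ptpn7 was the 1 phosphatase that differed with disease. It encodes HePTP, a tyrosine phosphatase of haematopoietic cells that acts on ERK and p38. It was at 35.3 and 24.9 RPKM in the LT-HSC libraries, 33.7 in the ST-HSC library and 42.5 in the normal KLS- library, and at 11.5 and 11.7 in the LT-CML libraries, 9.41 in ST-CML cells and 9.92 in CML-KLS- cells. Each CML library lay below each normal library in all 3 cell types. Between CML stem cells and normal HSCs the difference was -1.43 (SE 0.18, 95% interval -1.84 to -1.03, adjusted p = 0.00688 from limma), or 0.347 times the normal mean, and it passed in 13 of 13 alternatives. Within LT cells it was -1.28 (SE 0.22, adjusted p = 0.0370), which passed in 6 of 11 alternatives and was lost when any 1 of the 4 LT libraries was left out. Ptpn7 was the 1 gene of the 60 tested in the upstream, phosphatase and target lists that passed by limma in either comparison, beside 2.34% and 1.73% of all genes, so that the count over the lists is no higher than the background.

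**Figure D4:**
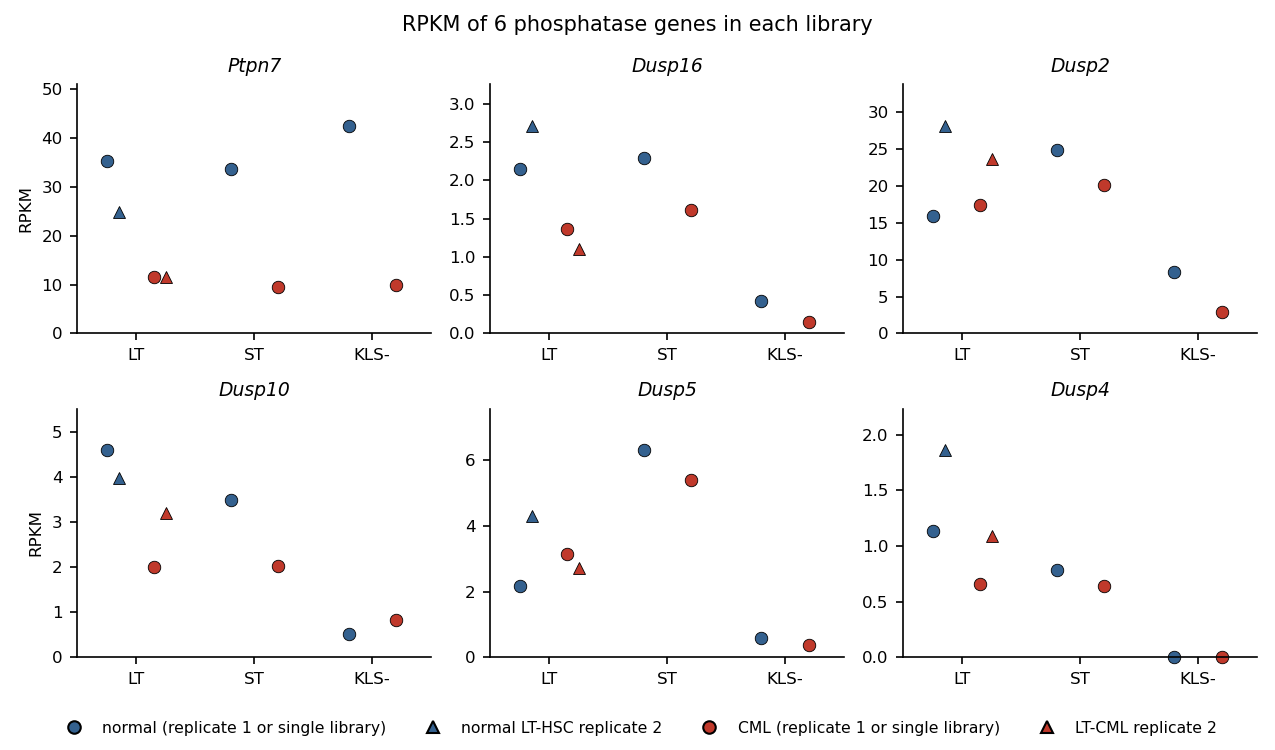
Each panel plots a phosphatase gene in the 8 libraries, with RPKM on a linear axis from 0 and LT, ST and KLS- along the bottom, blue for normal and red for CML libraries. Ptpn7 is at 24.9 RPKM or above in the 4 normal and at 11.7 or below in the 4 CML libraries, and the 5 Dusp genes are lower in both KLS- libraries than in each of the 6 stem libraries.

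Among the other upstream genes, Map3k8 (TPL2), a MAP3 kinase of inflammatory signalling, was between 3.47 and 5.50 RPKM in stem libraries and at 0.748 and 0.940 in KLS- libraries (1.55, SE 0.18, adjusted p = 0.000442 from limma, 15 of 15 alternatives). Taok1, a MAP3 kinase of the TAO family (0.66, SE 0.13, adjusted p = 0.00445), Spag9, which encodes the scaffold JIP4 (0.71, SE 0.15, adjusted p = 0.00637), and Map3k11 (0.65, SE 0.14, adjusted p = 0.00647) also rose in stem cells. Map3k7ip1, the gene of TAB1, which binds p38α and the kinase TAK1, fell by 0.65 (SE 0.18, adjusted p = 0.0189), and Traf2, an adaptor of the tumour necrosis factor receptor, fell by 0.47 (SE 0.14, adjusted p = 0.0241). Apart from Map3k8, each of these calls was lost without the CML-KLS- library, and those of Spag9, Map3k11, Map3k7ip1 and Traf2 also without the normal KLS- library, while Map3k11 was lost under quantile normalization and Map3k7ip1 without the disease covariate as well.

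Targets that rose in stem cells were led by the transcription factor gene Mef2a, between 3.78 and 5.19 RPKM in stem libraries and at 1.76 and 1.31 in KLS- libraries (1.10, SE 0.13, adjusted p = 0.000504 from limma, 15 of 15 alternatives). Elk4, a ternary complex factor (0.82, SE 0.15, adjusted p = 0.00349), Pla2g4a, the cytosolic phospholipase A2 (0.90, SE 0.18, adjusted p = 0.00555), and Mef2c (1.23, SE 0.25, adjusted p = 0.00580) also rose. Elk4 was lost without the normal KLS- library, Pla2g4a without the CML-KLS- library and Mef2c without either. Max, the partner of Myc, fell by 0.47 (SE 0.15, adjusted p = 0.0344) and passed in 8 of 15 alternatives. Smad3, on which the study followed phosphorylation by p38, was between 4.68 and 8.93 RPKM in stem libraries and at 3.67 and 2.64 in KLS- libraries (0.82, SE 0.18, adjusted p = 0.00770), a call lost without either KLS- library. Slc15a2, the dipeptide transporter gene on which the paper centres, is outside the p38 cascade. It was at 9.66 ± 0.802 RPKM in CML stem cells and 2.95 ± 0.269 in normal HSCs (SD, n = 3 each). It passed by limma in that comparison (13 of 13 alternatives), within LT cells and as higher in stem than in KLS- libraries.

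Between LT and ST cells, 2 upstream genes and 2 targets passed, or 4 of the 60 tested in the upstream, phosphatase and target lists, beside 4.08% of all genes. Gadd45g, a stress-induced activator of MAP3K4, was between 2.51 and 4.19 RPKM in LT and at 1.036 and 1.195 in ST libraries (0.98, SE 0.19, adjusted p = 0.0326 from limma). Cdc25b, a cell cycle phosphatase controlled by p38 and MK2, was between 5.52 and 9.40 RPKM in LT and at 2.81 and 3.44 in ST libraries (1.12, SE 0.20, adjusted p = 0.0235). Zfp36 (TTP), the RNA-destabilizing target of MK2, fell by 0.73 in LT cells (SE 0.15, adjusted p = 0.0425), and Map3k1, whose groups overlapped, fell by 0.81 (SE 0.17, adjusted p = 0.0419). Each of the 4 was lost without either ST library and without LT-CML replicate 2, and each passed in 6 to 8 of 13 alternatives.

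The genes whose pattern over the 8 libraries was most like that of each p38 kinase were ranked by Pearson's r of log2(RPKM + 1) among 12560 genes, as a description over libraries that share cell types. For Mapk14 they were Il7 (r = 0.987), Tnfsf12 (0.987) and H2-Ab1 (0.980), and 524 genes had r over 0.9. For Mapk11 they were Foxp1 (0.957), Ddc (0.952) and Rel (0.943), with 19 genes over 0.9. For Mapk12 they were 2010002M12Rik (0.986), Fcer2a (0.979) and Scrg1 (0.968), with 69 genes over 0.9. For Mapk13 they were Arl16 (0.917), Fam102b (0.912) and Gpr84 (0.909), with 4 genes over 0.9. Il7 and H2-Ab1 were, like Mapk14, highest in LT-HSC replicate 2 and ST-CML and lowest in the KLS- libraries, and Fcer2a and Scrg1 shared the high value of Mapk12 in LT-HSC replicate 2.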

How the data were processed

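The data were 8 RNA-sequencing libraries. Per the methods, cDNA was primed with oligo-dT in a kit for very small amounts of RNA, read as paired ends and mapped to mm9 (NCBI Build 37) through a commercial service. The authors deposited RPKM per gene for each library. The annotation and the counting rule were not given in the sources used here. Members were found by symbol, and groups were taken from the labels. Genes whose RPKM summed to more than 1 over the libraries were kept (12561 genes). Tests were run in R 4.3.3 with limma 3.58.1, whose moderated variance followed mean expression, on log2(RPKM + 1). P-values were adjusted over all genes kept by the Benjamini-Hochberg method, and 0.05 was the threshold. CML stem cells were set against normal HSCs in a fit of those 6 libraries. That within LT cells used 1 mean per population over all 8, and that of LT with ST cells used the 6 stem libraries.

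RPKM are not counts, so no count test was used. Reads were estimated only to judge precision, from the step of low values and the exon lengths of GENCODE M1. Of 5001 genes with a mean below 0.5 RPKM, 78.5% lay on whole steps within 0.02 reads. Of the gene names, 93.2% matched 1 locus. Scripts were tested on simulated data with 200 altered genes per run. A planted difference of 0.5 was recovered for 0% of these genes in every comparison. A planted difference of 1 was recovered for 0% in the interaction and for 67% to 88% in the other comparisons. At a difference of 2, recovery was 94.5% to 100%. A member that did not pass can therefore still differ by about 0.5, or by about 1 in the interaction. These rates hold for 200 altered genes per run. Between stem and KLS- libraries 41.6% of all genes passed, so that the adjusted threshold was less strict there, and Mapk14 passed at 0.49. The altered genes had a mean log2(RPKM + 1) above 1. Mapk11 and Mapk12 lay below that, so that recovery at their level was not simulated. Sequences and coordinates came from GENCODE M1 on NCBI Build 37.

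The members and lists were chosen with earlier results of these data known. All members are given. Of the upstream, phosphatase, target, ERK and JNK lists and of the study's axis, genes past the threshold are named. These are at most the 4 with the smallest adjusted p in each direction of a list, and Dusp4. Genes of the marker lists are given for their levels only. For each p38 kinase the 3 genes with the highest r are given. Alternatives were a pseudocount of 0.1, a mean of at least 1 RPKM, no minimum, quantile normalization, upper-quartile scaling, no intensity trend, other covariates or libraries in the fit, and leaving out each library. Python 3.11.15 with pandas 2.3.3 was used for the rest. Protein, imaging, metabolite and patient data of the study were not used here.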

Additional observations from a re-analysis of the deposited data

Results flagged for a closer look

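Mapk12 in LT-HSC replicate 2 lay far from the other libraries. Its 1.80 RPKM compares with 0.307 to 0.824 RPKM in the other 5 stem libraries (gap over range 0.653, critical value 0.625) and with 0.307 to 0.372 RPKM in the other 3 LT libraries (0.957, critical value 0.829). These were 2 of 20 groups of member values examined, and both rest on the same value, since the LT libraries are also stem libraries. The groups are not independent and mix disease states or cell types, so that the nominal rate of about 1 in 20 may not hold. The library was the 6-month one and had the highest neutrophil and granulocyte sum among stem libraries (4165 RPKM). LT-CML replicate 2 had a similar sum (3831 RPKM), led by different genes of the list, with Mapk12 at 0.320 RPKM. The sum of B and T cell genes (5.90 RPKM, mostly Cd79a at 3.34), Hbb-b1 (56.3 RPKM) and Ddx3y (31.0 RPKM) were also high in the library, and their part in the value was not tested.

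Of the 4 members whose LT-CML and LT-HSC libraries did not overlap (beside 40.5% of all genes), 2 moved in the opposite direction in the ST libraries. The share of all genes that do so was not computed, and the difference between the directions was not tested. Mapkapk2 and Map3k5, whose LT libraries overlapped, also had opposite ratios of mean RPKM (0.770 and 0.971 in LT cells, 1.19 and 1.31 in ST cells). The mean RPKM of Mapk14 in LT-CML was 0.884 times that in LT-HSC libraries, whereas the ST-CML library was at 1.16 times the ST-HSC library. The corresponding ratios of Mapk12 were 0.289 in LT cells and 1.62 in ST cells, where the former rests on LT-HSC replicate 2 and the latter on 29 against 18 estimated reads.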

How the results depend on the processing

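The members called between stem and KLS- libraries (3) numbered 1 to 4 with each library left out, and 1 (Mapkapk3) without either KLS- library. In the other comparisons 0 members passed under every alternative. The genes called over the whole table moved more. Between CML stem and normal HSC libraries they were 173 without a minimum on low values, 543 with cell type as a covariate and 115 to 217 with each library left out (294 as reported). Within LT cells they were 0 without a minimum and 6 to 74 with a library left out (217 as reported). Between stem and KLS- libraries they were 1750 to 5275 with a library left out (5231). Between LT and ST cells they were 15 without a minimum and 55 to 712 with a library left out (513). For the interaction they were 2 with a pseudocount of 0.1, 1 with a mean of at least 1 RPKM, 151 without a minimum, 1 with upper-quartile scaling and 0 to 7 with a library left out (9), and the fit could not be made without either KLS- library. The cause was not tested.

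Signs changed only for differences that had not passed. For CML stem against normal HSC libraries, Mapk14 was 0.021 under quantile normalization. With each library left out, the ranges there were -0.11 to 0.039 for Mapk14, -0.021 to 0.15 for Mapk11, -0.49 to 0.027 for Mapk12, -0.035 to 0.28 for Map3k5, -0.36 to 0.12 for Mapkapk2 and -0.22 to 0.013 for Mapkapk5. Within LT cells, Map3k5 was -0.011 under upper-quartile scaling, and the ranges were -0.31 to 0.32 for Map3k5, -0.055 to 0.20 for Mapk11, -0.072 to 0.37 for Mapk13 and -0.32 to 0.16 for Mapkapk5. For stem against KLS- libraries, quantile normalization gave 0.17 for Map2k3, -0.030 for Map3k5 and -0.052 for Mapkapk5, upper-quartile scaling gave 0.10 for Map2k3, and its range was -0.30 to 0.30. For LT against ST cells, Mapk14 was 0.020 under quantile normalization and 0.025 under upper-quartile scaling, and the ranges were -0.19 to 0.19 for Mapk14, -0.47 to 0.38 for Mapk12, -0.50 to 0.79 for Mapk13 and -0.069 to 0.20 for Map3k5. For the interaction, Mapk12 was 0.013 with a pseudocount of 0.1 and Mapkapk3 0.056 under upper-quartile scaling, with ranges of -0.50 to 0.16 for Mapk12, -0.29 to 0.051 for Mapkapk2, -0.049 to 0.080 for Mapkapk3 and -0.0086 to 0.073 for Map2k6.

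No paired analysis was possible because the numbers of the LT replicates mark no shared animal, litter or batch in the labels, and the other populations have 1 library each. The numbers of Mapk11, Mapk12 and Mapk13 rest on 0 to 81 estimated reads, which limits what they can show.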
